A study of Homo sapiens with 12 samples.

Results

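The regions described here are 80137 of the 5254113 stranded genomic regions of a table of J2-bound RNA. Each carries exactly 1 repeat name, an Alu, and has another such Alu region on the other strand of the same chromosome at a distance of 1 to 1000 bp, without overlap. They are called paired Alu regions below, a name for their position and not for a measured duplex. No read count entered the choice, and a region with 0 reads could serve as the neighbour. Of 451065 single-name Alu regions in all, 370928 had no such neighbour, and they serve as the comparison. The cells were NCI-H1944, an established line from a human lung adenocarcinoma. RNA was pulled down from them with J2, an antibody that binds double-stranded RNA, and sequenced. The 6 groups, of 2 libraries each, were IFNAR1sg cells, which carry an IFNAR1 knockout, given MPS1i, IFNb or DMSO, and SCR cells, of wild-type genotype, given MPS1i, IFNb or DMSO. MPS1i was the inhibitor BAY-1217389 at 100 nM for 48 h, washed out before a further 24 h of culture. IFNb was recombinant interferon beta at 5 ng/ml during those 24 h. The labels do not say whether the IFNAR1sg cells are 1 clone, and nothing says that the libraries of a group came from separate cultures, so p-values measure only the spread between libraries, which may be technical. Input RNA was not analysed here: the amount of a transcript and its double-stranded share cannot be told apart, nor can fewer cells holding an RNA and less RNA per cell.

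Alu elements are the most numerous short retroelements of the human genome and fall into the old AluJ, the intermediate AluS and the young AluY subfamilies. When 2 Alu copies in opposite orientation lie close together in 1 transcript, they can fold back into a long hairpin. Such hairpins are the main substrates of the editing enzyme ADAR and can be bound by the sensors MDA5 (IFIH1) and PKR (EIF2AK2). MPS1 is a kinase of the mitotic spindle checkpoint. IFNAR1 forms, with IFNAR2, the cell-surface receptor of interferon beta. By its design the series asks which J2-bound RNAs change after a pulse of MPS1 inhibition, and whether that needs IFNAR1.

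A reference transcript can run through both Alu copies of a pair. An example is an AluSc5 region in the 3′ UTR of USP6NL, a gene for a GTPase-activating protein of Rab5, which lies 21 bp from its partner and held 934 reads, while the partner had 0. The USP6NL region had 10.8 and 12.9 CPM (read counts over TMM-scaled library sizes) in IFNAR1sg MPS1i cells, against 14.0 and 12.9 CPM in IFNAR1sg DMSO cells. With MPS1i in SCR cells it had 13.1 and 10.9 CPM, against 15.5 and 13.1 CPM with DMSO, and it was called for neither treatment in either genotype.

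A region counts RNA of 1 strand. The partner region counts RNA of the other one. The other arm of a hairpin within 1 transcript lies in regions of the first strand that run across the partner. Regions with enough reads for a test were long, with a median of 778.5 bp against 108 bp for all paired Alu regions, so their reads cover flanking bases as well as the Alu. The sources used here do not give the treatment of multiply mapped reads. Coordinates of regions are given as the table has them on hg38. A region's length there equals its end minus its start plus 1, while 2 rows start at 0, so a start may be 1 base off.

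The libraries held 3739443 to 7430687 reads. The 2 SCR IFNb libraries stood apart, in which 295367 and 296843 regions had a read, while the other 10 had 566704 to 935974 such regions. Intronic regions also took fewer of their reads, 19.4% and 19.6%, against 27.8% to 38.6% elsewhere. A region in IFNAR1, an AluSz6 region with 1 exon base and no opposite neighbour, had 2.73 and 1.69 CPM in IFNAR1sg DMSO cells, against 9.41 and 9.51 CPM in SCR DMSO cells (log2 fold change -2.12 ± 0.37 SE, n = 2 per group, adjusted p = 0.0018). Interferon genes still answered IFNb in IFNAR1sg cells, as given below for the double-stranded RNA sensors. Cell type markers were read as gene sums of regions that share no exon base, so 0 reads does not show that an RNA was absent. Of the epithelial markers KRT8 reached 1660 to 4250 CPM, while NKX2-1 and KRT19 had 0 reads. The 7 summed fibroblast markers moved with MPS1i, at 16.3 and 12.7 CPM in IFNAR1sg cells, against 1.27 and 1.43 CPM with DMSO, and at 14.4 and 16.7 CPM in SCR cells, against 2.04 and 0.951 CPM with DMSO. FAP made up most of that sum, while COL1A2 had 0 reads and the other 5 stayed under 2 CPM in every library. The 5 summed immune markers reached 9.13 and 9.54 CPM in SCR IFNb cells and 4.55 and 7.22 CPM in SCR MPS1i cells, against 1.36 and 1.27 CPM in SCR DMSO cells. Most of their reads were of CD68. The part of these markers in the results was not tested.

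Paired Alu regions were covered less than the other single-name Alu regions, at about the read density of all regions. Together the paired regions held 469747 reads, 0.66% of all. Of the paired regions 50.95% had 0 reads in all 12 libraries, against 43.89% of the other single-name Alu regions and 46.13% of all regions. Per kb they had 37.2 reads, against 78.2 in the other single-name Alu regions and 38.8 in all regions. Without the regions that share a base with an exon of their strand, paired and other Alu regions had 33.7 and 44.5 reads per kb. The 10 regions with most reads held 12.1% of the reads.

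Chromosome 19, which is dense in genes and Alu copies, held 7.87% of the paired regions, against 2.39% of all regions. A neighbour could be missed: 44.8% of the 370928 other Alu regions had, on the other strand and overlapping them or within 1000 bp, a region that names an Alu among several repeats, and among those with enough reads for a test the share was 88.3%. The comparison set therefore holds many inverted Alu copies too.

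Older Alu copies were covered more often. AluS made up 50373 of the paired regions, AluJ 19051 and AluY 10589, and 124 had no subfamily letter. Of the AluJ regions 45.7% had 0 reads, of the AluS regions 51.5% and of the AluY regions 57.7%. The same order held among the other single-name Alu regions, with 33.4%, 44.7% and 54.9%. Read density was 40.5 reads per kb for paired AluJ, 36.7 for AluS and 32.3 for AluY, while the other single-name regions had 80.5, 83.5 and 50.2, without that order. Median region length fell in the order AluJ, AluS, AluY as well, at 131, 104 and 92 bp for paired regions. The other single-name regions had 128, 96 and 87 bp. The part of length in coverage was not tested, nor how well reads of young, near-identical AluY copies can be placed.

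The closest pairs were read most. The median distance between the regions of a pair was 475 bp. At 1 to 50 bp, 44.4% of 5301 regions had 0 reads and the density was 70.1 reads per kb. At over 500 and up to 1000 bp, 53.0% of 37798 regions had 0 reads, at 34.1 reads per kb. The classes between, which end at 100, 250 and 500 bp, had 38.7, 29.8 and 33.0 reads per kb, so density did not fall steadily. The shares with enough reads for a test were 4.7%, 2.62%, 1.42%, 0.813% and 0.884% in 5 distance classes that end at 50, 100, 250, 500 and 1000 bp. Median region length fell along the same classes, at 157, 147, 124, 105 and 98 bp, and its part in coverage was not tested. At the limit itself nothing stepped: 46.8% of the 3331 regions at 951 to 1000 bp had reads, and so did 46.6% of 3239 single-name Alu regions whose nearest opposite Alu lay at 1001 to 1050 bp.

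By place, 38457 paired regions were intergenic, 23218 intronic (in a gene on its strand, sharing no exon base), 18328 antisense (a gene only on the other strand) and 134 shared a base with an exon of their strand. Intronic regions held 44.2% of the paired reads and intergenic ones 32.0%. The 134 exon-sharing regions held 10.3%.

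Summed over all paired Alu regions, the level moved little with MPS1i and was lower with IFNb in SCR cells. With MPS1i it was 6779 and 7240 CPM in IFNAR1sg cells, against 6089 and 6833 CPM with DMSO, a log2 ratio of 0.12. In SCR cells it was 6378 and 6878 CPM with MPS1i, against 6668 and 6913 CPM with DMSO (-0.03). In both genotypes the libraries overlapped. With IFNb it was 5935 and 6590 CPM in IFNAR1sg cells (-0.05), which overlapped DMSO, and 4698 and 5364 CPM in SCR cells (-0.43), which lay below both DMSO libraries. In all 6 groups replicate 2 had the higher sum. Set against the DMSO library of the same number, both MPS1i sums were higher in IFNAR1sg cells and lower in SCR cells. Both IFNb sums were lower in each genotype. The labels do not say what libraries of the same number share. In exon-free regions of SCR cells the log2 ratios were -0.03 with MPS1i and -0.54 with IFNb for paired regions. The other single-name Alu regions had -0.27 and -0.61. In IFNAR1sg cells they were 0.14 and -0.07 for paired regions, against -0.19 and -0.05 for the others. These sums carry no test.

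The small overall change with MPS1i was made of parts that moved in opposite directions. Intronic paired Alu regions summed to 2781 and 2886 CPM with MPS1i in IFNAR1sg cells, against 2996 and 3362 CPM with DMSO (-0.17). In SCR cells they summed to 2438 and 2612 CPM with MPS1i, against 3293 and 3284 CPM with DMSO (-0.38). Both pairs lay below their DMSO libraries.

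Intergenic paired regions went the other way, with 2418 and 2648 CPM with MPS1i in IFNAR1sg cells, against 1740 and 2012 CPM with DMSO (0.43). In SCR cells they had 2333 and 2549 CPM with MPS1i, against 1955 and 2037 CPM with DMSO (0.29). Antisense regions were higher as well, by 0.44 in IFNAR1sg cells and 0.28 in SCR cells. Sums over all regions of the series split the same way with MPS1i. In IFNAR1sg and SCR cells they changed by -0.14 and -0.23 for intronic, 0.48 and 0.44 for intergenic, and 0.53 and 0.34 for antisense regions. With IFNb in SCR cells the intronic sum was 1517 and 1754 CPM (-1.01 against DMSO), the intergenic sum 1559 and 1834 CPM (-0.23), and the antisense sum, 834 and 926 CPM, overlapped DMSO (0.09).

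**Figure D1:**
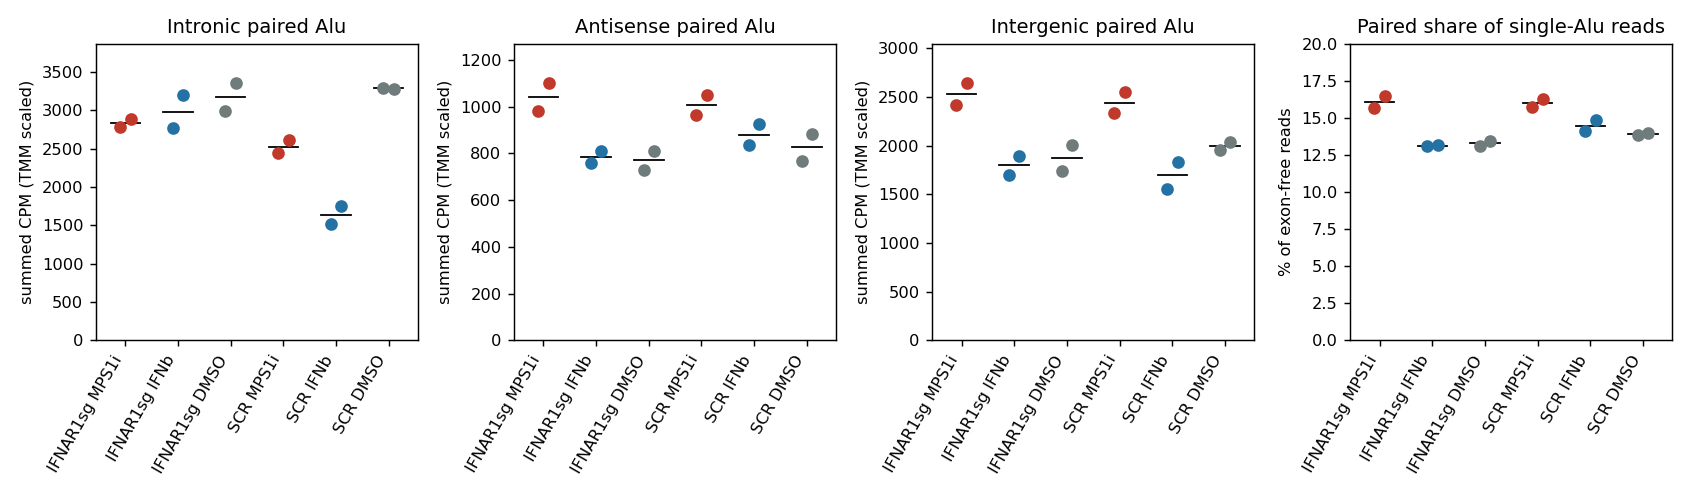
Summed CPM of intronic, antisense and intergenic paired Alu regions in each library, and the percent of reads of exon-free single-name Alu regions that fell in paired ones. Points are libraries and bars are means of 2. In each genotype the MPS1i libraries lie below DMSO for intronic and above DMSO for antisense and intergenic regions.

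Paired Alu regions took a larger part of the Alu reads after MPS1i. Of reads in exon-free single-name Alu regions they held 15.7% and 16.5% with MPS1i in IFNAR1sg cells, against 13.1% and 13.5% with DMSO. In SCR cells they held 15.8% and 16.3% with MPS1i, against 13.9% and 14.0% with DMSO. Within one place the picture differed. Among intronic Alu reads the paired share was 10.1% and 10.5% with MPS1i in IFNAR1sg cells, against 8.94% and 9.14% with DMSO, and 9.8% and 10.2% in SCR cells, against 9.48% and 9.37%.

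Among intergenic Alu reads the paired share was instead lower with MPS1i, at 29.4% and 30% in IFNAR1sg cells, against 30.8% and 31.4% with DMSO, and at 29.1% and 30% in SCR cells, against 32.5% and 33.0%. Among antisense Alu reads it was 28.3% and 27.8% with MPS1i in IFNAR1sg cells, against 29.2% and 29.5% with DMSO, and 27.7% and 26.7% in SCR cells, against 29% and 27.9%. The overall share in SCR IFNb cells, 14.15% and 14.8%, lay above DMSO too. Within each place, though, the paired share in SCR IFNb cells lay below DMSO. It was 8.22% and 8.62% among intronic Alu reads, against 9.48% and 9.37% with DMSO. Among antisense reads it was 22.9% and 23.5%, against 29% and 27.9%, and among intergenic reads 28.1% and 30%, against 32.5% and 33.0%. With MPS1i the overall share was higher while the intergenic and antisense shares were lower. The part of the mix of places in these shares was not tested.

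With enough reads for a test were 1016 paired Alu regions (316 AluJ, 601 AluS, 97 AluY and 2 unnamed), or 1.27%, against 1.7% of all regions. These 1016 held 61.0% of the paired reads. The test was edgeR's quasi-likelihood test over all 89111 regions that passed the count filter, and the threshold for a call was a p under 0.05 after Benjamini-Hochberg adjustment. Changes below are log2 fold changes ± SE with n = 2 libraries per group. The tested regions are not a sample of all: 551 were intronic, 281 intergenic, 130 antisense and 54 exon-sharing.

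With MPS1i, paired regions rose mostly outside genes and fell mostly in introns, in both genotypes. In IFNAR1sg cells 58 of 1016 rose and 66 fell, 12.2% in all, against 17.3% of all tested regions (9.41% higher and 7.85% lower). In SCR cells 55 rose and 73 fell, 12.6% in all, against 17.5% of all tested regions (9.5% higher and 8.0% lower). The medians were -0.07 and -0.26, against 0.01 and -0.03 over all regions, for IFNAR1sg and SCR. Of the 58 and 55 regions that rose, 31 were shared, 53.4% and 56.4% of each list, and of the 66 and 73 that fell 25 were shared, 37.9% and 34.2%. No paired region was called in opposite directions, and the 2 genotypes share no library. The overlap over all tested regions is not given here, so these shares cannot be read as particular to paired regions.

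Of 551 intronic paired regions 11 rose and 54 fell with MPS1i in IFNAR1sg cells, and 10 rose and 62 fell in SCR cells (medians -0.30 and -0.55). Of 281 intergenic ones 31 rose and 8 fell in IFNAR1sg cells, and 32 rose and 6 fell in SCR cells. Of 130 antisense ones 13 rose and 0 fell in IFNAR1sg cells, and 9 rose and 1 fell in SCR cells. In IFNAR1sg cells 25 of the 130 had an unadjusted p under 0.05 in either direction. The unadjusted share over all antisense regions is not given here. All tested regions showed the same split by place: 11.8% of intronic regions fell in IFNAR1sg cells and 11.8% in SCR cells, while 14.1% and 14.2% of intergenic ones rose. Among antisense regions the called shares were lower for paired ones, with 10.0% called in IFNAR1sg cells, against 23.8% of all antisense regions, and with 7.69% in SCR cells, against 17.6%. That difference was not tested.

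The balance of these counts depended on the settings. With library sizes set to intronic reads, an alternative chosen after the data were seen, 70 paired regions rose and 44 fell in IFNAR1sg cells, and 82 rose and 45 fell in SCR cells. Without TMM factors 51 rose and 84 fell in IFNAR1sg cells, and of 139 called in SCR cells 38 rose and the rest fell. These settings moved the median of all regions by 0.14 and -0.13 in IFNAR1sg cells and by 0.23 and -0.16 in SCR cells. Under each of these scalings the intronic median stayed below the antisense and intergenic ones. In SCR cells the intergenic median was -0.15 without TMM factors and -0.03 with DESeq2 size factors, so its sign there depends on the scaling, and without TMM factors 5 antisense regions rose and 4 fell. The balance in IFNAR1sg cells turned as well, with 27 higher and 24 lower by DESeq2's Wald test and 52 higher and 35 lower with no filter. Leaving out 1 library took the counts in SCR cells down to 56 (26 up, 30 down; SCR MPS1i replicate 2), 69 (SCR MPS1i replicate 1) and 68 (SCR DMSO replicate 1). In IFNAR1sg cells they went down to 50 (27 up, 23 down; IFNAR1sg DMSO replicate 2), 75 (DMSO replicate 1), 80 (MPS1i replicate 1) and 64 (MPS1i replicate 2).

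Across subfamilies and distances, between 8.84% and 15.0% of paired regions were called with MPS1i in SCR cells. In SCR cells 13.9% of AluJ, 11.8% of AluS and 13.4% of AluY regions were called, with medians of -0.38, -0.21 and -0.14. In IFNAR1sg cells the shares were 11.4%, 12.1% and 14.4%, with medians of -0.14, -0.04 and -0.01. AluJ lay lowest in both genotypes, and among the other single-name Alu regions of SCR cells too (-0.61, -0.48 and -0.40). Among intronic paired regions alone, the SCR medians were -0.71, -0.48 and -0.80, without that order. By distance, the shares called in SCR cells were 11.6%, 14.1%, 15.0%, 8.84% and 13.8% from the closest to the farthest class. No trend with distance is visible in them, and no test of one was made.

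**Figure D2:**
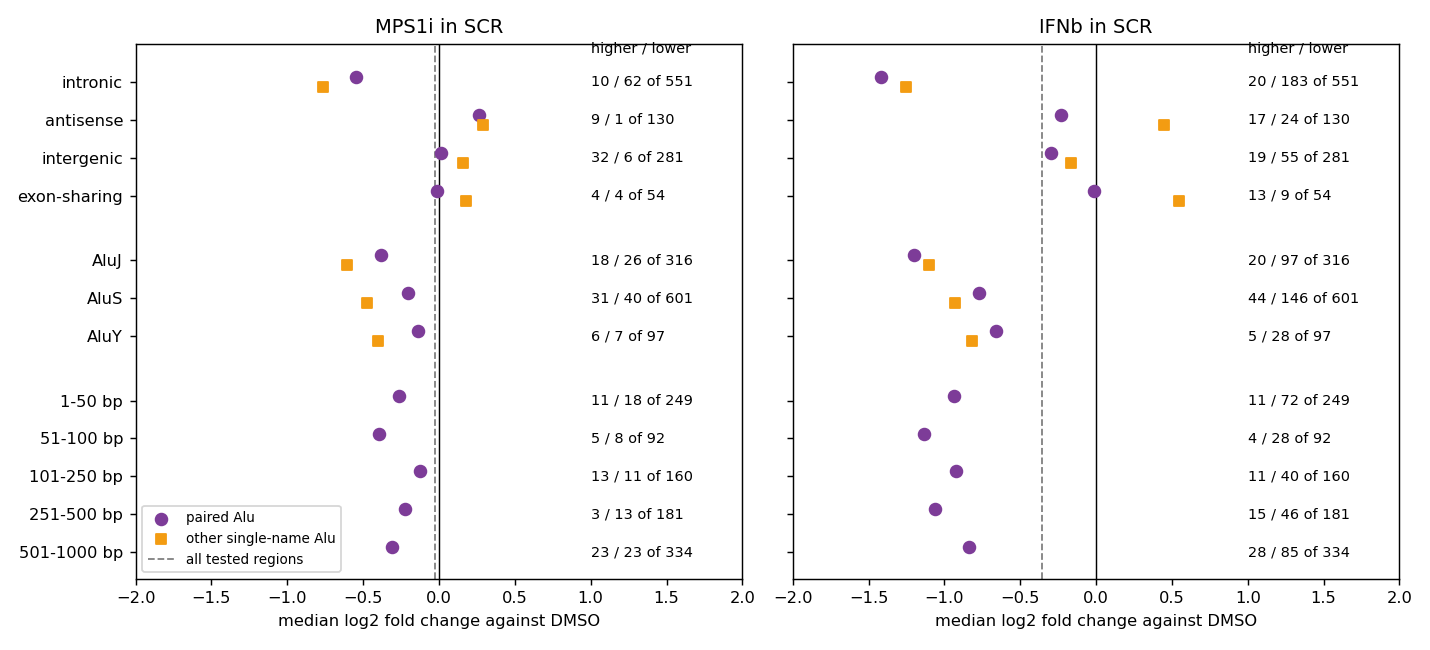
Median log2 fold change against DMSO in SCR cells by place, subfamily and distance of the pair, for paired Alu regions (circles) and other single-name Alu regions (squares; not defined for distance), with the number of paired regions higher and lower of those tested. Intronic regions lie lowest in both panels, and the distance classes show no order.

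Several of the paired regions that rose with MPS1i in both genotypes lie past the ends of genes. An AluSx region (chr10:110520080-110521845, plus strand) lies 8536 bp past DUSP5, which encodes a nuclear phosphatase of ERK. It had 8.96 and 10.7 CPM with MPS1i in IFNAR1sg cells, against 1.64 and 0.652 CPM with DMSO (3.17 ± 0.44, adjusted p = 7.16e-08). In SCR cells it had 8.85 and 15.2 CPM with MPS1i, against 2.32 and 0.951 CPM with DMSO (2.85 ± 0.41, adjusted p = 1.04e-07). The IFNb libraries, with 0.556 to 2.13 CPM, lay in the range of DMSO or just below it.

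An AluJb region 6588 bp past RASSF10, a member of the Ras association domain family, rose by 1.58 ± 0.29 in IFNAR1sg cells and 1.88 ± 0.28 in SCR cells, and with IFNb in SCR cells by 1.04 ± 0.31. An AluSg region on chromosome 1 (226000565 to 226001046, plus strand), 1234 bp from SDE2, rose by 2.69 ± 0.40 in IFNAR1sg cells and 2.14 ± 0.40 in SCR cells. In these regions and in the one past DUSP5 every MPS1i library was above both DMSO libraries of its genotype. An AluJr region 2265 bp past RNVU1-18, a small nuclear RNA gene with near-identical copies, rose by 1.44 ± 0.34 and 2.07 ± 0.35, an uncertain value since its copies may share reads.

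In CARS2, the mitochondrial cysteinyl-tRNA synthetase gene, 2 Alu regions of the same strand, which share 1 opposite partner with 0 reads, rose with MPS1i. The AluSx3 region (chr13:110710946-110712225, minus strand) had 8.24 and 8.86 CPM with MPS1i in IFNAR1sg cells, against 1.64 and 1.96 CPM with DMSO (2.22 ± 0.38, adjusted p = 1.05e-05). In SCR cells it had 8.59 and 10.7 CPM with MPS1i, against 2.86 and 1.90 CPM with DMSO (2.01 ± 0.37, adjusted p = 3.32e-05). The rest of CARS2 had log2 ratios of -0.04 in IFNAR1sg cells and -0.28 in SCR cells. The AluSp region next to it had 4.19 and 4.16 CPM with MPS1i in IFNAR1sg cells, against 0.546 and 0.13 CPM with DMSO. Those DMSO values are 3 reads and 1 read, too few for a firm fold (3.67 ± 0.69, called). In SCR cells it rose by 1.64 ± 0.57. Both may lie on 1 transcript and are not independent.

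The paired region with the highest mean CPM fell with MPS1i. This AluSx region (chr9:36678424-36680811, plus strand) starts 741 bp past MELK, a kinase of dividing cells, and held 12821 reads. It had 109 and 88.6 CPM with MPS1i in IFNAR1sg cells, against 205 and 236 CPM with DMSO (-1.16 ± 0.15, adjusted p = 3.02e-09). SCR cells had 99.3 and 89.2 CPM with MPS1i, against 240.0 and 240.0 CPM with DMSO (-1.35 ± 0.15, adjusted p = 1.79e-11). With IFNb in SCR cells it had 169 and 196 CPM (-0.40 ± 0.14, adjusted p = 0.0273).

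An AluSp region of 99 bp in RPL23A, a ribosomal protein gene, fell by 1.22 ± 0.16 in IFNAR1sg cells and by 1.24 ± 0.16 in SCR cells. It shares 1 base with an exon, so reads of the exon may be in it. In introns, regions of these genes fell in both genotypes: PTGR1, a prostaglandin reductase (AluJb; -1.64 ± 0.17 and -1.56 ± 0.18), ABCC1, a drug efflux pump (AluSx; -1.22 ± 0.35 and -1.90 ± 0.35), and CDC27, a subunit of the anaphase-promoting complex (AluJo; -1.38 ± 0.38 and -1.93 ± 0.38). The PTGR1 region overlaps 203 exon bases of genes on the other strand, the CDC27 region 450 and the YWHAE region 186. YWHAE, a 14-3-3 protein gene, had an AluJo region that fell as well (-2.10 ± 0.38 and -1.25 ± 0.37). An AluY region of INTS7, an Integrator subunit gene, fell in IFNAR1sg cells (-2.41 ± 0.45) and had -1.11 ± 0.47 in SCR cells (adjusted p = 0.0915). An AluY region of PSMD11, a proteasome subunit gene, fell in IFNAR1sg cells (-3.12 ± 0.57), while SCR cells had -1.14 ± 0.47 (adjusted p = 0.083). The test of that difference gave -1.99 ± 0.78, not called (adjusted p = 0.593).

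With IFNb in SCR cells far more paired regions fell than rose: 69 of 1016 rose and 271 fell, 33.5%, against 33.0% of all tested regions (15.0% higher and 18.1% lower). The median was -0.98, against -0.36 over all regions and -0.98 over the other single-name Alu regions. Of the intronic paired regions 20 rose and 183 fell (median -1.42). Of the intergenic ones 19 rose and 55 fell, and of the antisense ones 17 rose and 24 fell. Among all antisense regions the balance was the other way, with 30.9% higher and 4.11% lower, against 13.1% and 18.5% of the paired ones. The shares called of all intronic and all intergenic regions are not given here. In summed level all intronic regions fell too, by a log2 ratio of -0.59, against -1.01 for paired ones. All intergenic regions had -0.02, against -0.23 for paired ones. AluJ had the lowest median (-1.20), then AluS (-0.77) and AluY (-0.66), and in introns alone these were -1.58, -1.31 and -1.64. The distance classes lay between -1.13 and -0.84 with 31.9% to 34.8% called.

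These values rest on the 2 libraries that stand apart. In them 51 of the 1016 regions had 0 reads, 35 of those intronic. A region with no read has no defined fold, and with such regions set to the bound that 3 reads over the group allow, the median was -0.92, and -1.35 in introns. With library sizes set to intronic reads 130 paired regions rose and 106 fell, the median of all regions shifted by 0.58, and the antisense and intergenic medians turned positive, at 0.36 and 0.27, while the intronic one was -0.84. Without TMM factors 41 rose and 364 fell, with a shift of -0.32. Leaving out a library took the 340 calls to 169 (SCR IFNb replicate 1), 199 (SCR IFNb replicate 2) or 210 (SCR DMSO replicate 1).

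In IFNAR1sg cells IFNb changed few paired regions: 3 rose and 1 fell, 0.394%, against 0.679% of all tested regions (0.547% higher and 0.132% lower). At an unadjusted p under 0.05 there were 72, with the unadjusted share over all regions not given here, and DESeq2's Wald test called 0. Those that rose were an AluSx region of 179 bp in an exon of USP18, an interferon-induced negative regulator of the receptor (1.65 ± 0.43), an AluSp region opposite PPP1CA (0.86 ± 0.22) and an AluJr4 region of COX7A1 opposite CAPNS1 (0.69 ± 0.17). The AluSz region of LRRC23 fell (-0.94 ± 0.25). The 4 calls were lost in several alternatives, and leaving out either IFNAR1sg DMSO library, IFNAR1sg IFNb replicate 1 or either SCR IFNb library took the count to 0. The COX7A1 region covers 776 exon bases of CAPNS1 and the PPP1CA region 1853 of PPP1CA.

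The paired region with the smallest p for a rise with IFNb in SCR cells was an AluSx3 region opposite HLA-E, a non-classical MHC class I gene (chr6:30489388-30494211, minus strand). It had 6.33 and 5.98 CPM with IFNb in IFNAR1sg cells, against 3.64 and 2.87 CPM with DMSO (0.94 ± 0.32, adjusted p = 0.217). In SCR cells it had 61.5 and 54.5 CPM with IFNb, against 2.86 and 4.44 CPM with DMSO (4.0 ± 0.27, adjusted p = 2.3e-21). MPS1i raised it as well, to 5.92 and 9.26 CPM in IFNAR1sg cells (1.24 ± 0.31) and to 19.5 and 17.1 CPM in SCR cells (2.33 ± 0.29).

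In SCR IFNb cells its values were the highest of any group. The region covers 2975 exon bases of HLA-E on the other strand. How strands were set in the counting is not given, so reads of HLA-E and of RNA on its other strand cannot be told apart. The same holds for an AluSp region opposite STAT2, which carries the interferon signal to the nucleus. That region covers 709 of its exon bases (chr12:56341429-56342305, plus strand). It had 3.10 and 1.67 CPM with IFNb in IFNAR1sg cells, against 1.27 and 1.30 CPM with DMSO (0.89 ± 0.52, adjusted p = 0.663). SCR cells had 18.0 and 30.1 CPM with IFNb, against 0.818 and 2.22 CPM with DMSO (4.01 ± 0.42, adjusted p = 1.3e-12). With MPS1i in SCR cells it rose by 2.09 ± 0.46.

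An AluSx3 region opposite ATXN2L, in the locus ENSG00000260570, rose by 1.07 ± 0.17 and holds 3671 bases of exons annotated opposite it. The next regions rose with IFNb in SCR cells and touch no exon of either strand. An AluJo region (chr4:139045940-139046572, plus strand) begins 1 bp past NOCT, which encodes nocturnin, and runs opposite an intron of ELF2. It had 22.9 and 25.2 CPM with IFNb in IFNAR1sg cells, against 23.3 and 23.5 CPM with DMSO (0.04 ± 0.19). SCR cells had 68.8 and 83.7 CPM with IFNb, against 23.2 and 20.9 CPM with DMSO (1.79 ± 0.19, adjusted p = 2e-12). With MPS1i it rose by 0.74 ± 0.19 in IFNAR1sg cells and by 1.36 ± 0.19 in SCR cells.

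An AluSx region 26 bp past WDR53 (chr3:196552258-196554151, minus strand) had 49.4 and 56.1 CPM with IFNb in IFNAR1sg cells, against 43.3 and 43.7 CPM with DMSO (0.28 ± 0.17). SCR cells had 107 and 104 CPM with IFNb, against 38.7 and 34.9 CPM with DMSO (1.51 ± 0.17). An AluSg region in an intron of XRCC3, a gene of homologous recombination, rose in SCR cells by 2.04 ± 0.22, with the rest of the gene at 1.19. An AluSq2 region in the locus ENSG00000260167 rose by 3.08 ± 0.40, with the rest at 0.55. On chromosome 9, 15660 bp from the nearest annotated gene, an AluY region (87407488 to 87407974, minus strand) rose by 1.97 ± 0.27 in SCR cells.

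**Figure D3:**
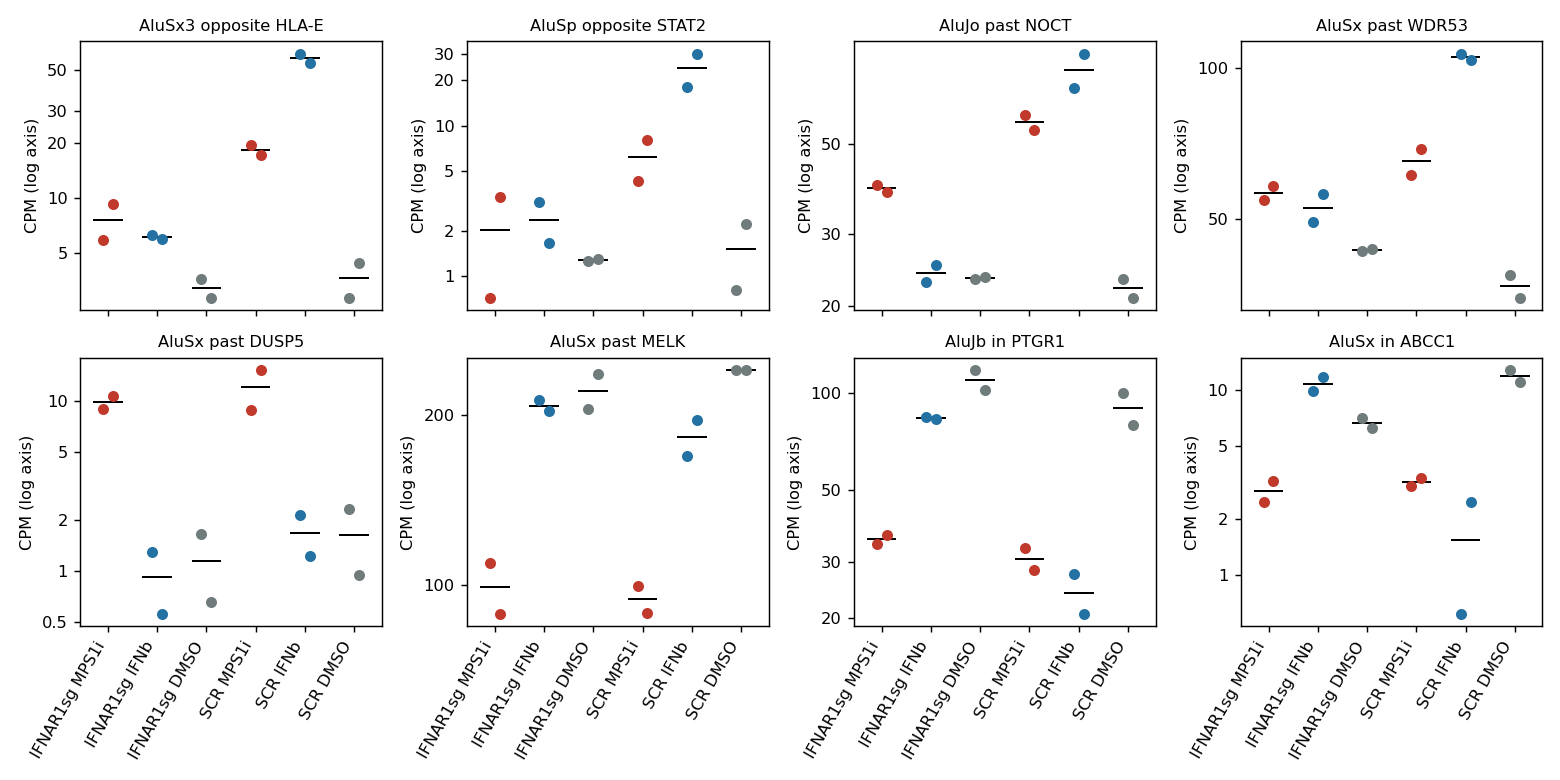
CPM of 8 paired Alu regions in each library on log axes. Points are libraries and bars are means of 2. The regions opposite HLA-E and STAT2 and past NOCT and WDR53 reach their highest values in SCR IFNb cells, the region past DUSP5 is high in MPS1i cells of both genotypes, and the regions past MELK and in PTGR1 are low in MPS1i cells of both genotypes.

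Most regions that fell with IFNb in SCR cells were intronic, and in those named the rest of the gene was lower too. The AluJb region of PTGR1 (chr9:111572783-111574604, minus strand) had 84.3 and 83.1 CPM with IFNb in IFNAR1sg cells, against 118 and 102 CPM with DMSO (-0.39 ± 0.16, adjusted p = 0.416). SCR cells had 27.4 and 20.6 CPM with IFNb, against 100.0 and 79.9 CPM with DMSO (-1.91 ± 0.19, adjusted p = 1.36e-13), and the rest of the gene changed by -1.13. In LRRC23, 2 Alu regions of the same strand with different opposite partners fell by 2.77 ± 0.37 (AluJb) and 2.50 ± 0.34 (AluSz), with the rest of the gene at -2.33 and -2.37. The ABCC1 region had 0.609 and 2.46 CPM with IFNb in SCR cells, against 12.9 and 11.1 CPM with DMSO (-2.96 ± 0.44), with the rest of the gene at -2.04. In an intron of FTX, a long non-coding RNA gene of the X-inactivation centre, an AluJo region had 0.609 and 0.0 CPM with IFNb in SCR cells, against 5.45 and 7.29 CPM with DMSO, too few reads for a firm fold. One intergenic AluJr region on chromosome 22 (10777067 to 10781364, minus strand) fell by 1.53 ± 0.23.

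With DMSO alone, no paired region was called between IFNAR1sg and SCR cells, against 0.0774% of all tested regions (0.0135% higher and 0.064% lower). At an unadjusted p under 0.05 there were 61, and the unadjusted share over all regions is not given here. DESeq2's Wald test also called 0, while leaving out SCR DMSO replicate 1 gave 5, all lower in IFNAR1sg cells.

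The test of the MPS1i response between genotypes called 0 paired regions, against 0.0617% of all tested regions (0.0112% higher and 0.0505% lower). DESeq2's Wald test called 0 paired regions too. At an unadjusted p under 0.05 there were 64, and the unadjusted share over all regions is not given here. Leaving out IFNAR1sg MPS1i replicate 1 gave 1 call. The median difference, as the change in IFNAR1sg minus the change in SCR, was 0.17, against 0.05 over all regions. For the region opposite HLA-E the difference was -1.08 ± 0.43 (adjusted p = 0.609) and for the region past NOCT -0.62 ± 0.26 (adjusted p = 0.643). With 2 libraries per group these intervals are wide, and a missed threshold does not show equal responses.

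The IFNb response did differ: 123 paired regions were called, 12.1%, of which 22 had a lower change in IFNAR1sg cells and the rest a higher one, against 12.2% of all tested regions (7.05% higher and 5.11% lower). Of those with a higher change 76 were intronic. By subfamily 15.2% of AluJ, 10.5% of AluS and 12.4% of AluY regions were called. The split rests on the scaling, with 47 higher and 49 lower with library sizes set to intronic reads and 158 and 10 without TMM factors. Leaving out 1 library took the count to 51 (SCR IFNb replicate 1), 57 (SCR IFNb replicate 2), 59 (IFNAR1sg IFNb replicate 2) or 80 (IFNAR1sg DMSO replicate 1). Among those with a lower change in IFNAR1sg cells were the regions opposite HLA-E (-3.06 ± 0.44) and STAT2 (-3.12 ± 0.72). Those in ABCC1 (3.67 ± 0.54) and CDC27 (3.03 ± 0.58) had a higher one.

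Changes of intronic paired Alu regions ran, in part, along those of the genes that hold them. For 508 intronic regions with 1 host gene and at least 100 reads in the rest of it, the MPS1i change of the region correlated with that of the rest of the gene (Pearson r = 0.52 in IFNAR1sg cells and 0.51 in SCR cells). This is a description across regions of the same libraries, which share depth and, in part, host genes. The sign was the same for 404 regions with MPS1i in SCR cells. The median difference between region and rest was 0.00 and -0.04. With IFNb in SCR cells r was 0.41 and the regions lay lower than the rest of their genes, with a median difference of -0.40. Of the 551 tested intronic regions 35 had 0 reads in both SCR IFNb libraries, and the part of such low counts in the gap was not tested.

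Partners of tested regions mostly had few or no reads. Of the 1016 tested regions 555 (54.6%) had a partner with 0 reads in all 12 libraries. A partner with 10 or more reads was found for 126, and 48 had one that was itself tested. Of all paired Alu regions 50.95% had 0 reads, and a partner, unlike the tested region, had to pass no count filter. On their own strand across the partner 699 of the tested regions had reads, and 399 had 10 or more. That is the arrangement of a hairpin within 1 transcript, but no hairpin was measured. More reads lay on the same strand than on the other strand at the partner for 619 regions and fewer for 174. The tested regions had passed a count filter on their own strand, which favours that strand here, so these counts say nothing about hairpins. Among 2159 pairs of mutually nearest regions with 20 or more reads in sum, the less covered one had 0 reads in 1291 and at least 10% of the pair's reads in 261.

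Changes were also set side by side along a strand and across strands. For 201 tested regions with a tested region of the same strand across the partner, the MPS1i changes had r = 0.61 in IFNAR1sg cells and 0.61 in SCR cells, and the same sign in 139 and 155. For 30 pairs with both strands tested, r was 0.32 and 0.35. The order was not the same in every comparison: for IFNAR1sg against SCR cells in DMSO r was 0.10 along the strand and 0.29 across strands, and for the MPS1i response between genotypes -0.01 and 0.32. These are descriptions, the difference was not tested, and neighbours on a strand can share a transcript.

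**Figure D4:**
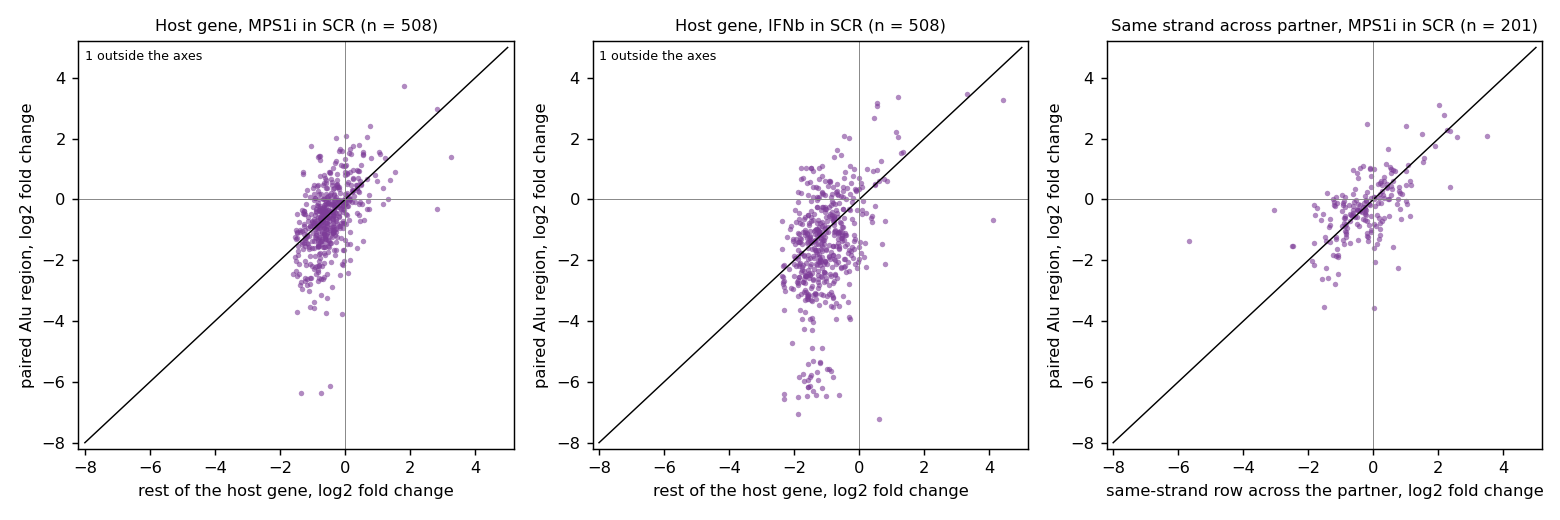
Log2 fold change of paired Alu regions against that of the rest of their host gene (508 intronic regions; MPS1i, then IFNb, in SCR cells) and against that of a region on the same strand across the partner (201 regions; MPS1i in SCR cells). The line marks equal change. Of the 508 regions 404 had the sign of the rest of the gene with MPS1i and 425 with IFNb, and with IFNb a group of regions with few or no reads lies far below it.

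The pairs with most reads on both strands show how far the strands can differ. The AluJo region past NOCT, with 2567 reads, faces an AluY region in an intron of ELF2 at 12 bp, with 378 reads. The first rose with MPS1i and IFNb in SCR cells, as given above. The second had 4.55 and 4.40 CPM with MPS1i in SCR cells, against 4.91 and 4.75 CPM with DMSO (-0.11 ± 0.37), and 5.17 and 9.54 CPM with IFNb (0.60 ± 0.36, not called).

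In RNF34, a ubiquitin ligase gene, an AluSq intronic region and an AluSx antisense region lie 6 bp apart with 1211 and 993 reads. The sense region had 15.2 and 18.5 CPM with MPS1i in IFNAR1sg cells, against 16.9 and 17.5 CPM with DMSO. In SCR cells it had 14.2 and 14.1 CPM with MPS1i, below the 16.4 and 16.0 CPM with DMSO. The antisense region, which begins 2 bp past KDM2B, had 11.7 and 11.4 CPM with MPS1i in IFNAR1sg cells, against 15.5 and 14.9 CPM with DMSO. In SCR cells the antisense region had 10.4 CPM in both MPS1i libraries, against 16.2 and 13.3 CPM with DMSO. Its MPS1i libraries thus lay below DMSO in both genotypes, by -0.39 ± 0.24 and -0.51 ± 0.26, but neither region was called for MPS1i or IFNb.

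An AluY region past USP1, which encodes the deubiquitinase of FANCD2, had 1643 reads. It changed by -0.81 ± 0.21 with MPS1i in IFNAR1sg cells (called) and by -0.36 ± 0.22 in SCR cells (not called). In the overlap of TOM1L1 and COX11 an AluSq2 intronic region of TOM1L1, which also covers 1667 exon bases of genes on the other strand, fell with MPS1i in SCR cells (-1.34 ± 0.36), while the AluSz6 region of COX11 had -0.40 ± 0.28. In IFNAR1sg cells neither was called, at -0.04 ± 0.32 and -0.30 ± 0.26. For SETDB1, a histone H3K9 methyltransferase, and CERS2, a ceramide synthase, the CERS2 side, which covers 1651 exon bases of SETDB1, fell with IFNb in SCR cells (-0.83 ± 0.26), and the SETDB1 side was not called.

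Genes that bind, edit or sense double-stranded RNA were measured as gene sums of reads in regions without exon bases. Of 25 listed genes 22 were measured. With MPS1i 9 rose and 6 fell in IFNAR1sg cells, against 26.9% and 19.3% of 14642 gene sums. In SCR cells 11 rose and 5 fell, against 22.1% and 21.4%. ADAR rose by 0.41 ± 0.15 and 0.64 ± 0.16, IFIH1 by 1.79 ± 0.13 and 2.73 ± 0.13, and EIF2AK2 by 0.63 ± 0.11 and 1.39 ± 0.11 in IFNAR1sg and SCR cells. For IFIH1 and EIF2AK2 the change was smaller in IFNAR1sg cells (-0.94 ± 0.18 and -0.75 ± 0.15 in the test of the difference). In that test 0 of the 22 genes had a higher change in IFNAR1sg cells and 5 a lower one, against 1.07% and 0.328% of gene sums. The helicase DHX9, which unwinds Alu duplexes, fell by 1.02 ± 0.14 and by 1.20 ± 0.15. With IFNb 7 rose and 0 fell in IFNAR1sg cells, against 0.642% of gene sums each way, and 11 rose and 5 fell in SCR cells, against 7.92% and 38.5%. IFIH1 rose by 1.18 ± 0.13 and 3.11 ± 0.13.

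Of 11 genes known for inverted Alu pairs in their 3′ UTR 9 were measured, again as gene sums of regions without exon bases. Reads of those exonic pairs are thus not in these sums, which describe other RNA of the genes. With MPS1i 2 rose and 3 fell in IFNAR1sg cells, against 26.9% and 19.3% of all gene sums. In SCR cells 3 rose and 2 fell, against 22.1% and 21.4%. With IFNb 0 rose and 0 fell in IFNAR1sg cells, against 0.642% each way. In SCR cells 2 rose and 5 fell with IFNb, against 7.92% and 38.5%. XIAP, an inhibitor of caspases, held 23 paired Alu regions on its strand with 334 reads, and 1 was tested. That AluJb region had 1.59 and 1.34 CPM with MPS1i in IFNAR1sg cells, against 2.37 and 1.43 CPM with DMSO. SCR cells had 1.26 and 2.11 CPM with MPS1i, against 1.77 and 2.22 CPM with DMSO, and it was called in no comparison. STAU2, a double-stranded RNA binding protein gene, held 11 paired regions with 32 reads, and AHR 1 with 0 reads.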

How the data were processed

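The authors deposited 1 table of raw counts for 12 J2 libraries, with a row for each region of 1 strand. Per the submitters' processing notes the tools were cutadapt, Trim Galore and Trimmomatic, then STAR, featureCounts and HOMER, on GRCh38 (hg38). Versions and settings, strand and multiple mapping included, are not given there. Regions were chosen by repeat name, strand and distance and placed against GENCODE 29. The members and gene lists were chosen with earlier results of these data known.

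Regions passing filterByExpr of edgeR 4.0.16 in R 4.3.3 (minimum count 10, minimum total 15, proportion 0.7) were fitted together with TMM factors, 1 coefficient per group and 6 residual degrees of freedom, with glmQLFit and glmQLFTest. SE is the absolute log2 change over the root of F. Interactions are the change in IFNAR1sg minus that in SCR. Gene sums used regions of a single gene's strand sharing no exon base. The rest of a host gene was scaled with 0.5 CPM added. Named were the 6 smallest p each way per treatment and genotype (3 for the other contrasts), the 5 highest mean CPM, the 5 pairs tested on both strands with most reads, and tested members in listed genes. The fit was tested on simulated data. Alternatives included DESeq2 1.42.0. Some items that these rules name are not reported here.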

Additional observations from a re-analysis of the deposited data

Results flagged for a closer look

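The IFNb response differed between genotypes, by the interaction term of edgeR's quasi-likelihood test, for 123 paired Alu regions. Values are the change in IFNAR1sg cells minus the change in SCR cells, on the log2 scale, and their causes were not tested. Among named regions the difference was negative opposite HLA-E (-3.06) and STAT2 (-3.12), in the locus ENSG00000260167 (-2.95), on chromosome 9 in an intergenic AluY region (-1.82), past NOCT (-1.75), for the facing AluY region of ELF2 (-1.60), in XRCC3 (-1.46), past WDR53 (-1.24) and in the locus ENSG00000260570 opposite ATXN2L (-0.83). It was positive in ABCC1 (3.67), FTX (3.44, with 0.609 and 0.0 CPM in SCR IFNb cells), CDC27 (3.03), PSMD11 (2.25), YWHAE (2.20), the AluJb (1.98) and AluSz (1.57) regions of LRRC23, PTGR1 (1.51) and the intergenic AluJr region of chromosome 22 (1.32). All rest on the 2 SCR IFNb libraries, which had the fewest regions with reads.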

How the results depend on the processing

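For MPS1i in IFNAR1sg, MPS1i in SCR, IFNb in SCR and the IFNb interaction, in that order, the counts of called paired regions of 124, 128, 340 and 123 were 51, 58, 173 and 46 with DESeq2's Wald test and 70, 69, 173 and 62 within 300 bp of the opposite Alu, where fewer regions were tested. With no filter beyond 10 reads in all they were 79 (MPS1i in SCR), 218 and 57. The 4 calls of IFNb in IFNAR1sg became 0 with the Wald test or without both SCR IFNb libraries, 1 within 300 bp, 2 with intronic library sizes, without TMM factors, with no filter or without exon-sharing regions, and 7 with only the groups compared. Without TMM factors the log2 ratios of the summed levels were -0.20 (MPS1i in SCR), -0.75 (IFNb in SCR) and 0.67 (IFNb interaction), against -0.03, -0.43 and 0.39.

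Leaving out 1 library gave 50 to 130 calls for MPS1i in IFNAR1sg, 56 to 132 for MPS1i in SCR, 0 to 4 for IFNb in IFNAR1sg, 169 to 345 for IFNb in SCR, 0 to 5 for IFNAR1sg against SCR, 0 to 1 for the MPS1i interaction and 51 to 130 for the IFNb interaction. The summed log2 ratios were 0.02 to 0.19, -0.09 to 0.02, -0.12 to 0.05, -0.53 to -0.34, -0.16 to 0.01, 0.06 to 0.24 and 0.30 to 0.49 in the same order. Where a group was left with 1 library, it was assumed to vary like the others. Named regions were checked with DESeq2's Wald test, DESeq2 size factors, no TMM factors, a replicate block and leaving out 1 library. Of 46 results on them 42 kept their call in all of these with a value. The other 4, the IFNb calls in IFNAR1sg, lost it in some. Intronic library sizes were not applied to named regions. Most of these regions were named for small p in the same data, which favours a kept call.

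Over all tested regions the deviations of same-numbered libraries had correlations of -0.05 to 0.09, too low to treat the numbers as pairs, and the labels name nothing that a number shares. Summed values of paired regions did go with the number: in all 6 groups replicate 2 had the higher summed level, the higher paired share of Alu reads and the lower AluJ share. With replicate number as a block the counts were 126, 129, 337 and 122 (IFNb interaction), and 4 for IFNb in IFNAR1sg. Depth limits these regions, as it does the whole series: 98.7% of them had too few reads for a test. The share tested was 1.27%, against 1.7% of all regions.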
